A study of Rattus norvegicus with 31 samples.

Results

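The genes described are 9 members of the elastic fibre and the contractile apparatus of smooth muscle: Eln, Fbn1 and Lox of the fibre, and Myh11, Acta2, Tagln, Cnn1, Mylk and Des of the contractile cell. They were chosen because Eln and Myh11 were lower than control in many treatments of these same livers, so the comparisons of the members with control are a description and carry no test. Of the 9 symbols, 8 had 1 row each in the deposited tables of 26312 genes, and all 8 passed the filter of at least 2 counts in total. No row carried the symbol Acta2, which was not analysed here.

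The livers came from 31 young adult female Wistar rats (Crl:WI) treated by oral gavage for 28 days. The 8 Control rats received only the vehicle, carboxymethyl-cellulose at 0.5% in water, which all treated rats received too. The single compounds were thiacloprid (THI) at 108 mg/kg bw/day in 4 rats, imazalil (IMZ) at 93 mg/kg bw/day in 4 rats and clothianidin (CTD) at 288 mg/kg bw/day in 3 rats. Per the study, killing in moribund condition occurred in this CTD group. THI and CTD are neonicotinoid insecticides and IMZ is an azole fungicide. The mixtures, in 4 rats each, were THI + IMZ at 54 and 46 mg/kg bw/day, THI + CTD at 54 and 134 mg/kg bw/day, and IMZ + CTD at 46 and 135 mg/kg bw/day. Per the study's methods, connective tissue next to the hilus was taken off, and each RNA sample came from a piece of a lobe. Library totals ran from 32.7 to 101.2 M counts in Control and from 31.8 to 54.8 M counts in the treated rats.

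Elastic fibres give vessel walls their recoil. Their core is cross-linked elastin (Eln), laid on a scaffold of fibrillin microfibrils (Fbn1), and lysyl oxidase (Lox) oxidizes the lysines that form the cross-links. In smooth muscle, smooth muscle actin (Acta2) and the smooth muscle myosin heavy chain (Myh11) slide past each other, myosin light chain kinase (Mylk) switches the motor on, calponin (Cnn1) and transgelin (Tagln, also called SM22) bind the actin filaments, and desmin (Des) is an intermediate filament. In liver these genes are known from the walls of portal and arterial vessels, though not from there alone. Des, for example, is also known from stellate cells, the vitamin A storing pericytes of the sinusoids. Which cells carried each gene here was not measured. In bulk tissue, fewer cells of a type and less RNA per cell cannot be told apart.

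The Eln primers of the study's qPCR are shown because Eln had the lowest median log2 difference from control over the 6 treatments, -1.30. They are given 5′ to 3′ in lower case.
Eln forward: tgctactgcttggtggagaa
Eln reverse: tccttgtcctgtgggttttc
Smooth muscle genes are known to carry the CArG box, the 10-letter site of serum response factor, and it was searched for because several members belong to that class. RefSeq promoters (build GRCr8, 250 bases before to 50 after the gene start) matched 5 members, which were Acta2, Fbn1, Cnn1, Mylk and Des. Among the 250 bases before the start, on either strand, no member held the exact box, which 1.5% of 33469 rat promoters held. With 1 middle letter allowed to be other than A or T, 8.08% of all promoters held a box, and of the 5 members only Acta2 did. It held 2, starting 134 and 84 bases before the start. The stretch chr1:241172558-241172657 (GRCr8, minus strand) is shown with both boxes in capitals, as the form of the site in the member best known for it.
Acta2 promoter: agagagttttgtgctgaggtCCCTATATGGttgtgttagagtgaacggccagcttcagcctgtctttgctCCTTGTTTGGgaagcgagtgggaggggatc
A match describes the letters and no binding was measured.

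Eln was low in all 6 treatments. In the 8 Control rats, replicates 1 to 8, it stood at 14.3, 5.31, 20.3, 6.44, 14, 16, 13.5 and 15.1 CPM (reads of the gene per M reads of the library, after scaling for library composition). The treated rats ranged from 3.17 to 8.85 CPM with a median of 4.88 CPM, so that all 23 lay below the control median of 14.2 CPM. The groups still overlapped, since Control replicates 2 and 4 stood within the treated range, and 12 of the 23 treated rats were below the lowest Control rat. Over all genes tested, 0.492% had all 23 treated rats below the control median.

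The group means of Eln were close to each other. They were 13.1 ± 4.95 CPM in Control (SD, n = 8), 5.2 ± 0.94 in THI, 4.71 ± 1.14 in IMZ, 5.98 ± 1.27 in CTD (n = 3), 4.86 ± 2.3 in THI + IMZ, 5.48 ± 1.27 in THI + CTD and 6.12 ± 2.03 CPM in IMZ + CTD (SD, n = 4 unless given). In order, the rats of THI had 4.26, 6.08, 5.93 and 4.52 CPM, those of IMZ 4.34, 4.41, 6.36 and 3.74 CPM, and those of CTD 5.9, 4.76 and 7.29 CPM. The mixtures gave 4.57, 3.17, 3.53 and 8.19 CPM in THI + IMZ, 6.87, 5.57, 5.68 and 3.8 CPM in THI + CTD, and 6.46, 4.88, 8.85 and 4.3 CPM in IMZ + CTD. No group was separate from the others, and within THI + IMZ and IMZ + CTD 1 rat stood above the other 3.

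**Figure D1:**
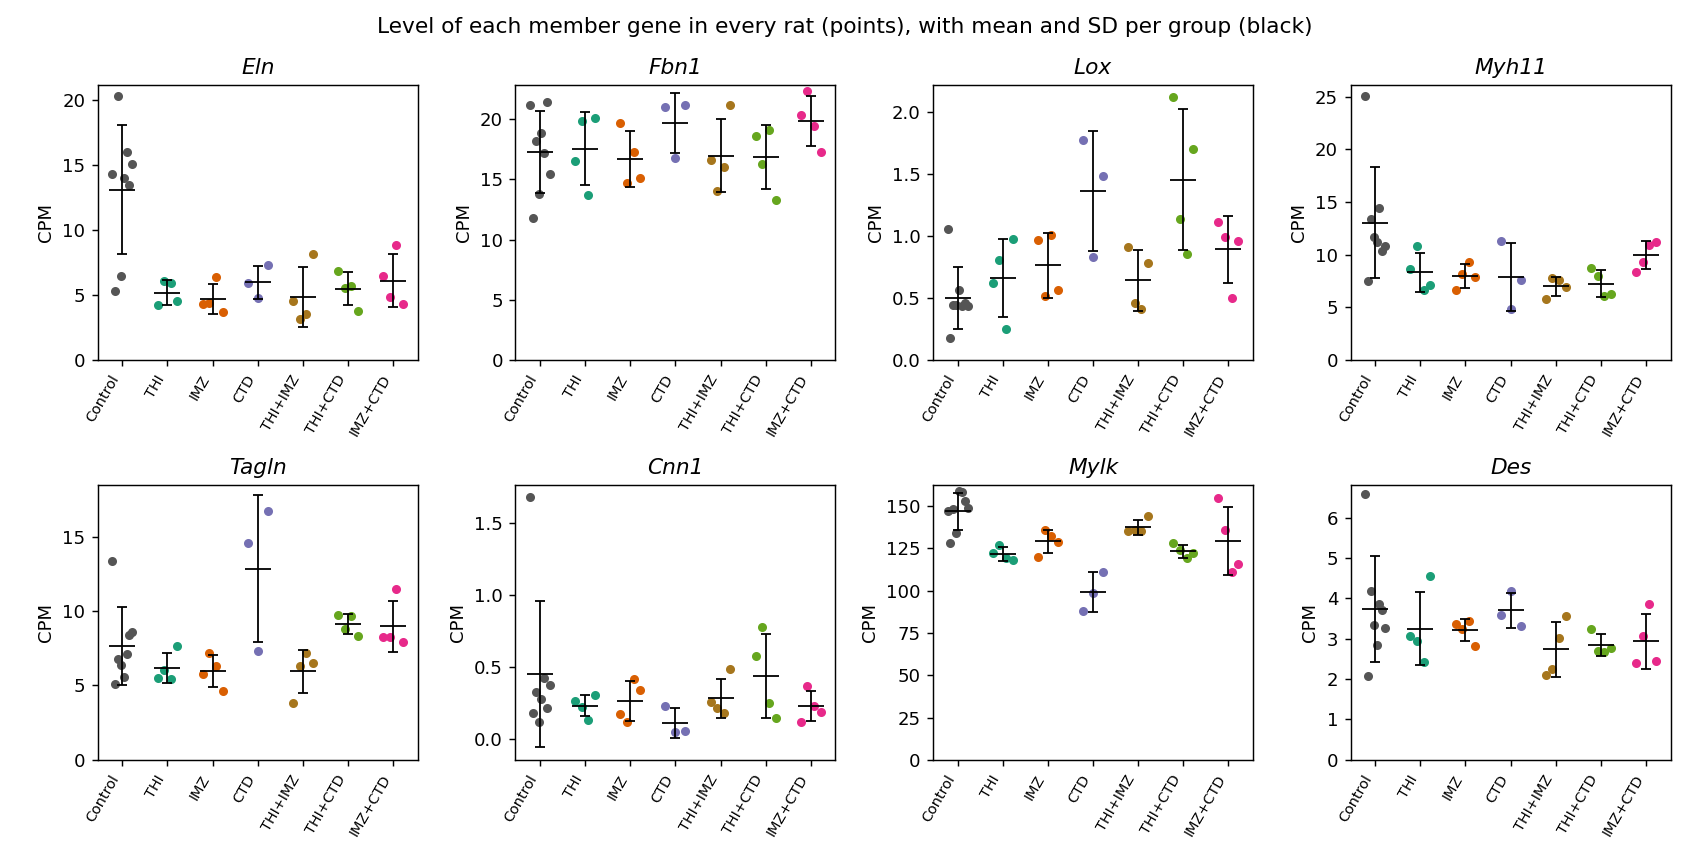
CPM of the 8 measured members (vertical axis, linear) in every rat by group, with the group mean and SD in black. Eln of the treated rats lies between 3.17 and 8.85 CPM with 6 of the 8 Control rats above, Mylk is lowest in CTD, and Tagln and Lox are highest in rats that received CTD.

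On the log2 scale, Eln differed from control by -1.34 ± 0.28 (SE) in THI, -1.48 ± 0.29 in IMZ, -1.14 ± 0.32 in CTD, -1.43 ± 0.29 in THI + IMZ, -1.26 ± 0.28 in THI + CTD and -1.10 ± 0.28 in IMZ + CTD. As linear ratios this is 35.8% of control in IMZ and 46.6% in IMZ + CTD, the ends of the range. All 6 comparisons use the same 8 Control rats. Eln stayed below control in all 228 repeats, the 6 comparisons with each of the 31 rats left out in turn, Control replicates 2 and 4 among them, or under another setting.

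Fbn1, the scaffold of the fibre, showed no such shift. Control rats had 11.8 to 21.4 CPM (median 17.7) and treated rats 13.3 to 22.3 CPM (median 17.3), with 12 of 23 below the control median. Its log2 differences from control ran from -0.05 in IMZ to 0.20 in IMZ + CTD, each with an SE of 0.14 or 0.15. Eln and Fbn1 were also compared within each library. The log2 difference of Eln minus Fbn1 was -0.48 ± 0.48 (SD, n = 8) in Control, where it was never under -1.15, and -1.76 ± 0.31 (n = 23) in the treated rats. It was under -1.15 in 22 of 23 treated rats, the exception being 1 of IMZ + CTD at -1.13. Eln was chosen as low in treated rats, which favours this separation, and its share over other pairs of genes was not computed. Control replicates 2 and 4, low for Eln, were also the lowest of the Control rats for Fbn1, at 11.8 and 13.8 CPM.

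Lox, the cross-linking enzyme, went the other way from Eln. It was sparse, with 6 to 110 counts per library. The Control rats had 1.06, 0.181, 0.445, 0.447, 0.561, 0.439, 0.458 and 0.434 CPM, the CTD rats 1.77, 0.827 and 1.48 CPM, and the THI + CTD rats 2.12, 1.14, 0.852 and 1.7 CPM. All 7 rats of these 2 groups stood above 7 of the 8 Control rats, and Control replicate 1 overlapped with them. How many of all genes were placed like this was not computed. The log2 differences were 1.38 ± 0.37 in CTD, 1.48 ± 0.34 in THI + CTD, 0.78 ± 0.35 in IMZ + CTD, 0.56 ± 0.35 in IMZ, 0.37 ± 0.36 in THI and 0.32 ± 0.36 in THI + IMZ. The log2 difference of Lox minus Eln was -4.59 ± 0.61 (SD, n = 8) in Control and -2.55 ± 0.70 (n = 23) over the treated rats, with 21 of 23 above the highest Control rat. The choice of Eln favours this separation too, and its share over other pairs of genes was not computed.

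Among the contractile genes, Myh11, the motor itself, was below the control median of 11.5 CPM in all 23 treated rats, which held for 0.492% of all genes. The Control rats had 25.1, 7.48, 13.4, 11.7, 11.2, 14.4, 10.4 and 10.8 CPM, and the treated rats 4.86 to 11.3 CPM with a median of 7.85 CPM. The groups overlapped, and 8 of 23 treated rats were below the lowest Control rat. The log2 differences were -0.90 ± 0.22 in THI + IMZ, -0.86 ± 0.22 in THI + CTD, -0.73 ± 0.25 in CTD, -0.72 ± 0.22 in IMZ, -0.65 ± 0.22 in THI and -0.40 ± 0.22 in IMZ + CTD. Control replicate 1 raised the control mean of 13.1 ± 5.27 CPM. Without it, the difference was -0.52 in CTD and -0.70 in THI + IMZ.

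Mylk, the kinase of the motor, was the best counted member, with 3373 to 15245 counts per library, and its spread was small. Control rats had 147 ± 11.1 CPM (SD, n = 8, 128 to 159), against 122 ± 4.16 in THI, 129 ± 6.73 in IMZ, 99.2 ± 11.8 in CTD, 138 ± 4.4 in THI + IMZ, 123 ± 3.91 in THI + CTD and 129 ± 20 CPM in IMZ + CTD. The 3 CTD rats, at 87.7, 98.6 and 111 CPM, and the 4 THI rats, at 118 to 127 CPM, were below all Control rats, a separation that 5.48% of all genes showed in CTD and 0.688% in THI. The log2 difference was -0.57 ± 0.09 in CTD and between -0.27 and -0.09 in the other treatments. Only 1 treated rat, of IMZ + CTD at 155 CPM, was above the control median of 149 CPM.

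Tagln, the actin binding protein, did not follow Myh11. The Control rats had 13.4, 5.07, 6.81, 6.38, 5.56, 7.11, 8.41 and 8.6 CPM, and the CTD rats 14.6, 7.29 and 16.7 CPM. THI + CTD gave 8.3 to 9.76 CPM and IMZ + CTD 7.9 to 11.5 CPM, so all 11 rats that received CTD were above the control median of 6.96 CPM, whereas of the 12 rats without CTD 9 were below it. The share of all genes with such a split was not computed. The log2 differences were 0.74 ± 0.22 in CTD, 0.25 ± 0.20 in THI + CTD, 0.22 ± 0.21 in IMZ + CTD, -0.32 ± 0.21 in THI, and -0.37 ± 0.21 in both IMZ and THI + IMZ. Tagln minus Myh11 was -0.74 ± 0.30 in Control on the log2 scale, and at most -0.31. It was 0.70 ± 0.39 in the 3 CTD rats and 0.34 ± 0.24 in the 4 THI + CTD rats (SD), all 7 above the highest Control rat. So were 2 of 4 rats in THI, 2 in IMZ, 3 in THI + IMZ and 3 in IMZ + CTD, and 17 of the 23 treated rats in all. Myh11 was chosen as low in treated rats, which favours such a shift, and its share over other pairs of genes was not computed.

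Cnn1 and Des, the remaining members, were less clear. Cnn1, an inhibitor of the motor, had 2 to 174 counts per library, and 174 of them came from Control replicate 1 at 1.68 CPM, while the other Control rats had 0.123 to 0.424 CPM. The CTD rats had 9, 2 and 2 counts (0.234, 0.0517 and 0.0615 CPM). Its log2 differences from control, -1.97 ± 0.73 in CTD, -1.01 ± 0.59 in IMZ + CTD and -0.08 ± 0.53 in THI + CTD among them, moved with that Control rat: without it they were -1.22 in CTD, -0.26 in IMZ + CTD, -0.23 in THI, -0.07 in IMZ, 0.06 in THI + IMZ and 0.67 in THI + CTD. Des stood at 3.74 ± 1.32 CPM in Control (2.08 to 6.59) and 2.11 to 4.55 CPM in the treated rats, within the control range in every one, with log2 differences of -0.46 in THI + IMZ to -0.02 in CTD (SE 0.21 to 0.23).

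**Figure D2:**
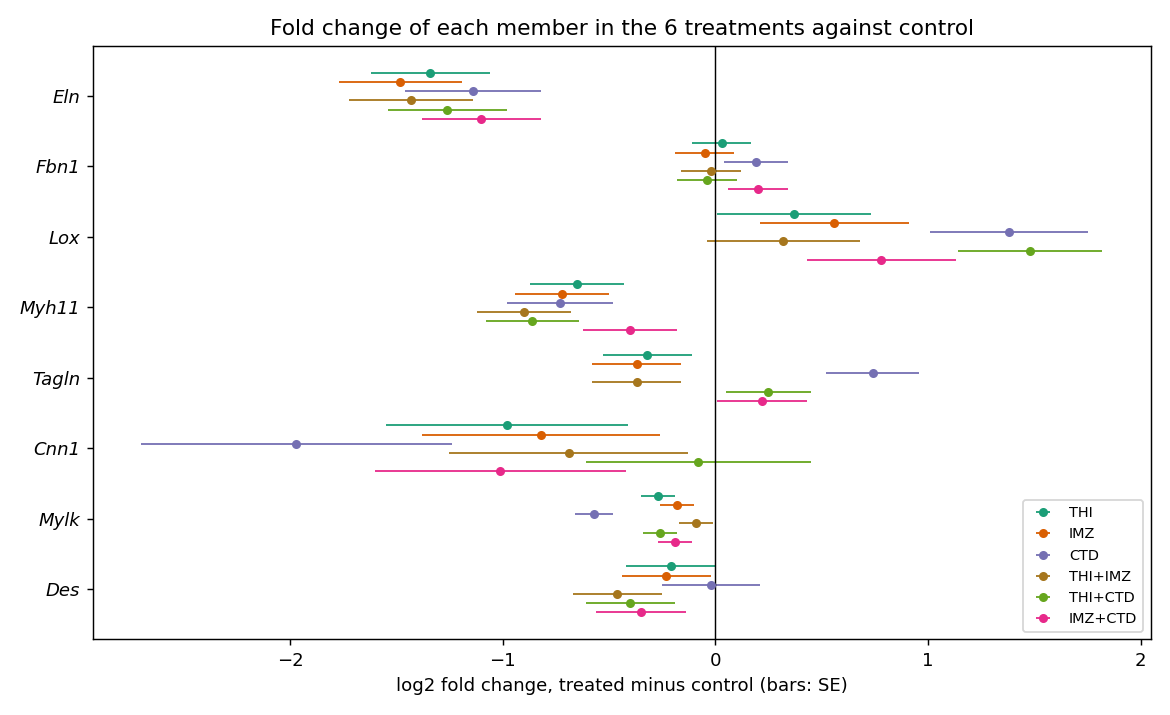
Log2 fold change, treated minus control, of the 8 measured members (rows) in the 6 treatments (colours), with bars for the SE. Eln lies between -1.48 and -1.10 in every treatment and Fbn1 between -0.05 and 0.20, Lox lies above 0, and Tagln lies above 0 with CTD and below 0 without it.

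Counted over the 8 members in the fit across all 19904 genes (edgeR's quasi-likelihood test, Benjamini-Hochberg adjusted p under 0.05), 1 member was past the threshold in THI, 1 in IMZ, 5 in CTD, 2 in THI + IMZ, 3 in THI + CTD and 1 in IMZ + CTD. Over all genes the shares past it were 0.543%, 0.251%, 12.7%, 1.18%, 4.39% and 1.46% in the same order, with 6.03% lower and 6.62% higher in CTD, where 3 members were lower and 2 higher. Eln was past it in all 6, Myh11 in CTD, THI + IMZ and THI + CTD, Lox in CTD and THI + CTD (higher than control), and Mylk and Tagln in CTD, Mylk lower and Tagln higher. As the members were chosen on these contrasts, these counts only describe the choice. The median over the 8 members was -0.30, -0.30, -0.29, -0.41, -0.17 and -0.27 on the log2 scale, beside -0.01 to -0.07 over all genes. Many of the calls were lost when 1 rat was left out, while the log2 differences kept their sign. That of Eln was lost in THI without THI replicate 1 or 4 (log2 difference -1.25 and -1.27), in IMZ without IMZ replicate 1 or 4 (-1.44 and -1.39), and in CTD without CTD replicate 1 or 2 (-1.13 and -1.0). In IMZ + CTD it was lost when any 1 of 9 rats was left out, Control replicates 1, 3, 5, 6, 7 and 8 and IMZ + CTD replicates 1, 2 and 4 (-0.97 to -1.13). That of Myh11 was lost in THI + IMZ without Control replicates 1, 3 or 6 or any of the 4 treated rats (-0.70 to -0.96), in THI + CTD without THI + CTD replicate 3 or 4 (-0.78 and -0.80), and in CTD when any 1 of 17 rats was left out (-0.47 to -0.73). These 17 included rats of treatments other than CTD, which share only the estimate of the spread. The call of Lox was lost without CTD replicate 1 (1.14) and without THI + CTD replicate 1 (1.24), and that of Tagln without CTD replicate 1 or 3 (0.64 and 0.51). The calls of Eln in THI + IMZ and THI + CTD and of Mylk in CTD were made in every fit with 1 rat left out. Fitted with only the groups compared, the call of Eln was lost in THI, THI + IMZ and IMZ + CTD (-1.33, -1.43 and -1.11).

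The differences between treatments hold no Control value, but their error comes from the same fit, to which the Control rats contribute. A joint test of the 6 treated groups called 2 of 8 members, Tagln (F = 6.49, adjusted p = 0.0134, edgeR) and Mylk (F = 5.38, adjusted p = 0.0281), where 5.82% of all genes were called. Lox had an adjusted p of 0.163 (unadjusted 0.0235) and was not called. For Eln the adjusted p was 0.91 and for Myh11 0.639, which does not show that the treatments acted alike, and the choice of genes low in many treatments favours such values. Fitted on the treated groups alone, Mylk was not called (adjusted p = 0.0524, edgeR). Both calls rested on the 3 CTD rats. Without CTD replicate 1 both were lost (adjusted p = 0.0701 for Tagln and 0.193 for Mylk), without replicate 2 that of Mylk (0.102), and without replicate 3 that of Tagln (0.0691).

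By pair of treated groups, 6 of 120 differences passed, and all 6 involved CTD, given at its full dose of 288 mg/kg bw/day. Tagln was higher in CTD, with log2 differences of -1.06 for THI minus CTD, -1.11 for IMZ minus CTD and 1.11 for CTD minus THI + IMZ (edgeR, adjusted p = 0.00926, 0.00959 and 0.00727). Mylk was lower in CTD, with 0.38 for IMZ minus CTD, -0.47 for CTD minus THI + IMZ and -0.38 for CTD minus IMZ + CTD (adjusted p = 0.0165, 0.00236 and 0.0159). With each pair fitted on its own rats, 1 of the 6 calls was made, that of Tagln between THI and CTD. Of all genes, 6.62% differed between THI and CTD, 4.67% between IMZ and CTD, 6.29% between CTD and THI + IMZ, and 5.53% between CTD and IMZ + CTD, and over the 11 pairs with no member called the share ran from 0% to 2.67%. Without CTD replicate 1 the calls of Tagln against THI and IMZ and those of Mylk against IMZ and IMZ + CTD were lost, with differences of -0.96, -1.0, 0.30 and -0.30 in the same directions. Without CTD replicate 3 all 3 of Tagln were lost (-0.83, -0.88 and 0.88), and without CTD replicate 2 those of Mylk against IMZ and IMZ + CTD (0.38 and -0.38). Mylk against IMZ was also lost without IMZ replicate 2 (0.36) and against IMZ + CTD without IMZ + CTD replicate 1 (-0.28).

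None of the 15 pairs differed in Eln. Its widest difference was IMZ minus IMZ + CTD at -0.38 ± 0.32 (95% interval -1.03 to 0.27, adjusted p = 0.715, edgeR), so that the data leave room for a 2-fold difference. Neighbours in the order of the Eln levels, from IMZ through THI + IMZ, THI, THI + CTD and CTD to IMZ + CTD, did not differ beyond their spread. For Myh11 the widest was THI + IMZ minus IMZ + CTD at -0.50 ± 0.25 (-1.01 to 0.01). THI and CTD, the pair of neonicotinoids, stood at 5.2 and 5.98 CPM for Eln, at 6.16 and 12.9 CPM for Tagln and at 122 and 99.2 CPM for Mylk, at doses of 108 and 288 mg/kg bw/day that differ.

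**Figure D3:**
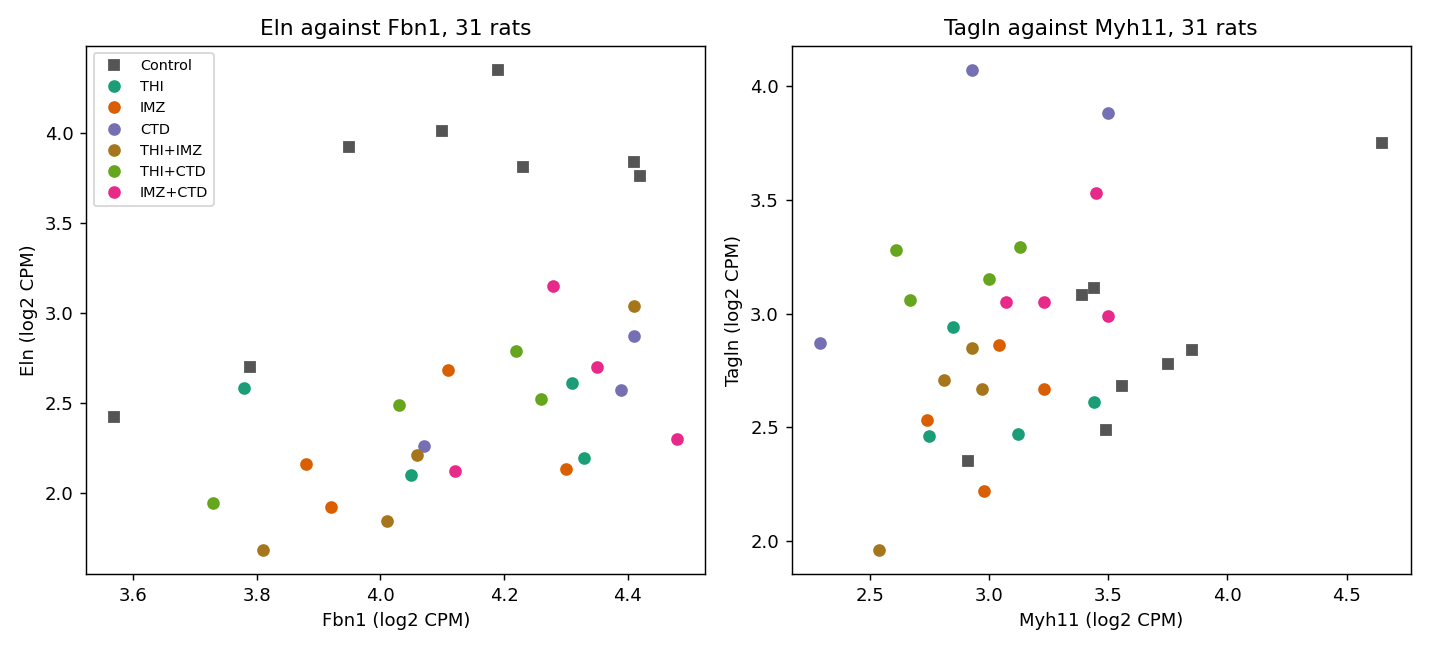
Log2 CPM of Eln against Fbn1 (left) and of Tagln against Myh11 (right) in 31 rats, 1 point each, coloured by group with squares for Control. At like Fbn1 the treated rats lie below the Control rats for Eln, and the CTD and THI + CTD rats lie higher for Tagln at like Myh11.

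The mixtures were also set against the sum of their compounds' log2 fold changes, weighted by dose (0.5 for THI and IMZ, 0.47 for CTD). No member differed from that sum in any of the 3 mixtures (0 of 8 each, edgeR, with 0, 1 and 1 members at an unadjusted p under 0.05), while 0.0151% of all genes did in THI + IMZ, 0.286% in THI + CTD and 1.16% in IMZ + CTD. DESeq2's Wald test likewise called 0 members in each. The sum is built from the fold changes against control that the choice of Eln and Myh11 used, which favours small differences for them. For Eln the mixture minus the sum was -0.02 (95% interval -0.58 to 0.54), -0.06 (-0.62 to 0.51) and 0.17 (-0.39 to 0.74) in that order. The unadjusted ones were Cnn1 in THI + CTD, at 1.34 ± 0.58, and Mylk in IMZ + CTD, at 0.17 ± 0.08.

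Among the untreated livers the members varied much. Control replicate 2 was the lowest of the 8 rats for 7 members, all but Cnn1, and Control replicate 1 the highest for 5, which were Lox, Myh11, Tagln, Cnn1 and Des. These 2 libraries were also the shallowest and the deepest of the Control rats, at 32.7 and 101.2 M counts. Beside them, Control replicate 1 had the highest summed CPM of nerve markers (2.88 against 0.407 to 1.29 in the 6 other rats), striated muscle markers (0.83 against 0.0917 to 0.468) and arterial endothelial markers (34.6 against 24.6 to 32.8), and the lowest of hepatocyte markers (176000 against 190000 to 237000). The sum of the 26 other smooth muscle genes was 588 CPM in Control replicate 1, 475 CPM in replicate 2 and 542 to 575 CPM in the 6 other rats. The part of these differences in the member values was not tested. Of the striated muscle markers, Ckm was at 0 in 24, Mb in 27, Myh6 and Myh7 each in 26 and Acta1 in 9 of 31 libraries. Tnnt3 was detected in all 31, at 0.0213 to 0.461 CPM.

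Over the 8 Control rats, Pearson's r was positive for all 28 pairs of members, and 14 pairs had an unadjusted p under 0.05 in an exact permutation test (two-sided), but none passed the Benjamini-Hochberg adjustment. The pair Myh11 and Des had r = 0.949 (exact permutation p = 0.00228, adjusted 0.0639, Spearman's rho = 0.81, n = 8). Without Control replicates 1 and 2, the rats farthest from the median, r was 0.592. For Eln and Fbn1, r was 0.77 (exact permutation p = 0.0309, adjusted 0.0759, rho = 0.286, n = 8) and -0.365 without Control replicates 2 and 4, so it rested on these rats. Eln and Myh11, the pair the choice started from, had r = 0.517 (exact permutation p = 0.21, adjusted 0.256, rho = 0.619, n = 8) and 0.0418 without Control replicates 2 and 4.

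Around the group means of all 31 rats, the correlation was highest for Myh11 with Cnn1 (r = 0.697), Myh11 with Tagln (0.662), Eln with Fbn1 (0.648) and Fbn1 with Lox (0.64). Over these 31 rats Mylk stood apart from the other contractile genes, with r of 0.04 to Myh11, 0.08 to Tagln and 0.047 to Des. These values are a description over rats that share Control replicates 1 and 2 and their depth. In the 23 treated rats alone, Myh11 and Tagln had r = 0.546, Myh11 and Cnn1 0.532, Eln and Fbn1 0.541 and Fbn1 and Lox 0.559. Other contractile pairs were lower there, with 0.037 for Myh11 and Des and 0.136 for Tagln and Cnn1. Tagln and Des had 0.398 and Cnn1 and Des 0.321.

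The genes most like Eln over 31 rats, among 10875 with a symbol and a mean log2 CPM above 0, were Pdgfrb, the receptor of platelet-derived growth factor on stellate cells and pericytes (r = 0.764), Ssbp3 (0.756), Pkdcc (0.74), Sema4a (0.729) and Ttyh2 (0.723), followed by Setdb1, C2cd2, Oat, Pbx2 and Pld1. With group means subtracted they were Arhgef10l (0.765), Vim, the intermediate filament vimentin (0.709), Pdgfrb (0.696), Popdc2 (0.695) and Pcolce, an enhancer of procollagen processing (0.688), then Myadm, Ttyh3, Nenf and Myh10. Pdgfrb was the only gene in both lists. For Myh11 the genes were Trhde (0.695), Slit3 (0.694), Eln (0.664), Hist1h1d, Sema4a, C7, H1f0, Pla2g16, Itpr2 and Hist1h4b. The r over 31 rats holds the shift from control, for which Eln and Myh11 were both chosen, so the choice favours their likeness. Around the group means, r of Eln and Myh11 was 0.367 over 31 rats and 0.2 in the 23 treated rats. With group means subtracted, tropomyosin Tpm2 (0.696), Anxa1 (0.69), Slit3 (0.671), Sf3b1 and Tagln (both 0.662) and filamin Flna (0.643) led, with Pms1, Slc25a24, collagen gene Col1a1 and Myef2 after them.

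Among the other genes of the elastic fibre, calls came in CTD and THI + CTD alone, in numbers near the share over all genes. Of 20 tested (fibulins, emilins, microfibril proteins, latent TGF-beta binding proteins and lysyl oxidase-like enzymes), none passed the threshold in THI, IMZ, THI + IMZ or IMZ + CTD (edgeR). In these treatments only 0.251% to 1.46% of all genes were called. In CTD 2 rose and 1 fell, beside 12.7% of all genes called, and in THI + CTD 1 rose, beside 4.39%. Fbln5, which tethers elastin to the microfibrils and to cells, rose from 2.65 ± 0.447 CPM in Control to 4.91 ± 0.871 in CTD and 4.68 ± 0.961 in THI + CTD (SD, log2 0.88 and 0.82, adjusted p = 0.0121 and 0.0237, edgeR). Loxl2, a relative of Lox, rose from 7.52 ± 0.665 to 10.9 ± 2.2 CPM in CTD (log2 0.53, adjusted p = 0.00674, edgeR). Mfap5 fell in CTD on few reads, with 1 count in 3 rats against 85 in the 8 Control rats, 58 of them in Control replicate 1 (ratio 0.0547, exact 95% interval 0.00137 to 0.313, counting error only). Without CTD replicate 1 none of the 3 calls in CTD remained and without CTD replicate 3 a single one did. In THI + CTD none remained without THI + CTD replicate 3 or 4, and 2 were made without Control replicate 1. The medians of the list were -0.21 in CTD and -0.05 to 0.09 in the other treatments.

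Among the smooth muscle genes beside the members, calls came in CTD alone, where 12.7% of all genes were called. Of 26 tested, 1 fell and 1 rose in CTD, where 6.03% of all genes fell and 6.62% rose, and none was called in the other 5 treatments. In those 5, 0.251% to 4.39% of all genes were called. Synm, the intermediate filament synemin, fell from 12.1 ± 1.52 to 8.44 ± 0.652 CPM (log2 -0.52, adjusted p = 0.00904, edgeR), and the integrin Itga8 rose from 3.11 ± 0.611 to 4.94 ± 1.88 CPM (log2 0.66, adjusted p = 0.0226, edgeR). A single call remained without CTD replicate 1 or CTD replicate 3. The numbers of genes below control were 18, 20, 17, 21, 19 and 14 of 26 from THI to IMZ + CTD in the order used above, with medians of -0.12, -0.18, -0.15, -0.29, -0.11 and -0.02 on the log2 scale, beside -0.01 to -0.07 over all genes. The summed level of the list was 475 to 588 CPM in Control and from 447 CPM upwards in treated rats, with medians of 528 to 586 CPM by group.

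**Figure D4:**
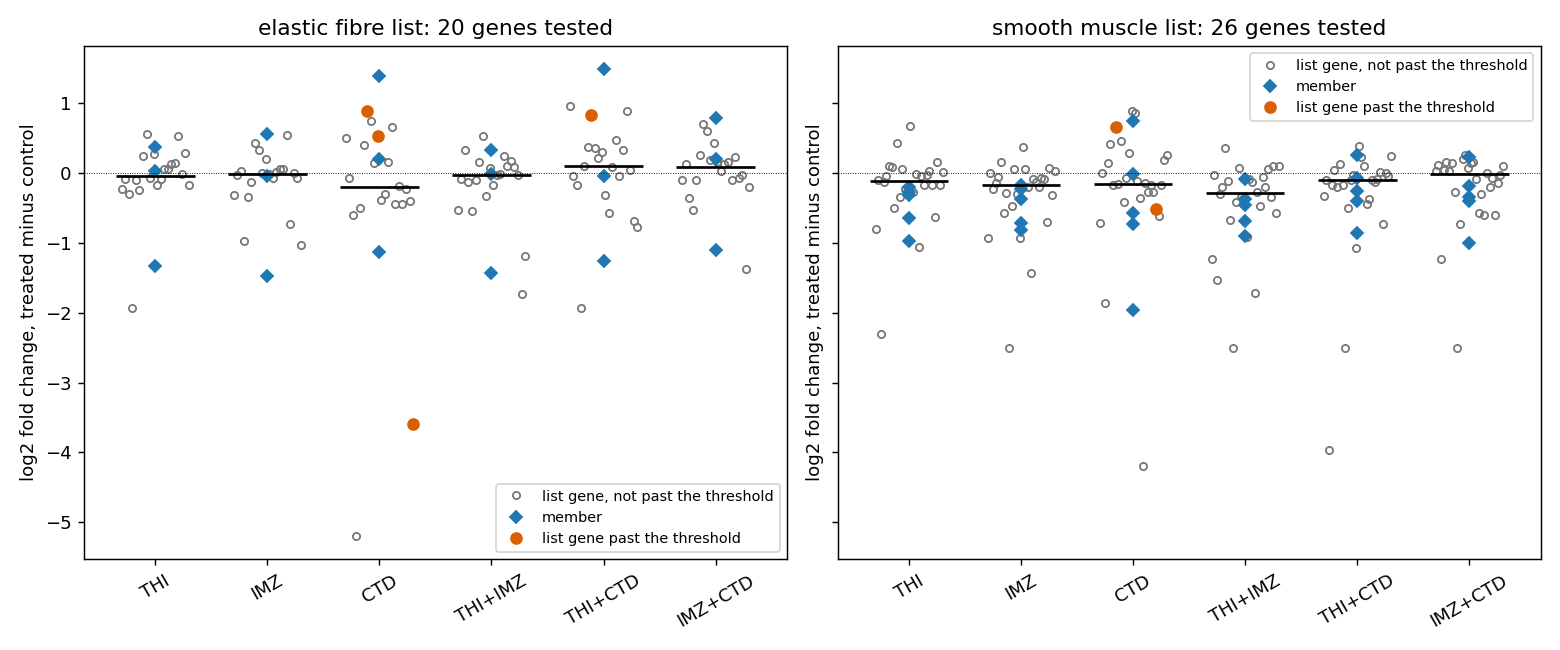
Log2 fold change, treated minus control, of the other genes of the elastic fibre (left) and of smooth muscle (right) in each treatment, with filled orange points for genes past the adjusted threshold, blue diamonds for the members and a black line at the median of the list. The medians lie between -0.29 and 0.09, and filled points stand in CTD and THI + CTD alone.

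Of 11 regulators listed around serum response factor and myocardin, 3 fell in CTD, beside 6.03% of all genes, and none was called elsewhere. They were Heyl, a Notch target (log2 -1.62, adjusted p = 0.0208, edgeR), Tbx2 (-0.92, adjusted p = 0.00375) and Mkl1, which carries the actin signal to serum response factor (-0.41, adjusted p = 0.0408). Serum response factor itself (Srf) stood at -0.01 ± 0.13 (SE) in CTD and was not called. Myocd, the myocardin of vessel muscle, stood at 1.16 ± 0.83 in CTD, was not called, and was at 0 in 11 of 31 libraries. In CTD 9 of the 11 regulators were below control, with a median of -0.09. In the TGF-beta pathway, 4 of 14 genes fell in CTD, again beside 6.03% of all genes: the ligand Tgfb1 (-0.79, adjusted p = 0.0134), the receptors Tgfbr2 (-0.50, adjusted p = 1.08e-05) and Tgfbr3 (-0.36, adjusted p = 0.00884), and the inhibitory Smad6 (-0.38, adjusted p = 0.0299). In THI + CTD, Tgfbr3 fell (-0.37, adjusted p = 0.00651) and Smad2 rose (0.33, adjusted p = 0.018), and nothing was called in the other 4 treatments. Of 14 genes of elastin breakdown and its inhibitors, Ctss, the elastolytic cathepsin S, fell by 0.59 and Serpina1, the inhibitor of neutrophil elastase, by 0.43 in THI + CTD (adjusted p = 0.0428 and 0.00228), and no other call was made. In THI + CTD 4.39% of all genes were called in either direction.

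Markers of the cells that could carry the members moved as follows. Hepatocyte genes were far above the rest in every library (Alb 103000 to 184000 CPM), and Apoa1 rose in THI + IMZ (log2 0.85, adjusted p = 0.0121, edgeR), the sole call of 6 genes. In THI + IMZ 1.18% of all genes were called. Stellate cell genes summed to 335 to 435 CPM in Control, 247 to 316 in CTD and 282 to 302 CPM in THI + CTD. Of 11, 3 fell in CTD, Ecm1 (log2 -1.02, adjusted p = 7.49e-07) and Reln (-0.46, adjusted p = 0.0364) among them, and 3 in THI + CTD, Reln (-0.47, adjusted p = 0.0399) and Colec11 (-0.28, adjusted p = 0.0249) among them. Of all genes, 6.03% fell in CTD and 4.39% were called in either direction in THI + CTD. Lrat and Reln, which define the list, were detected in all libraries. None of the 11 was called in the other 4 treatments, where 10, 10, 11 and 10 of them were below control (THI, IMZ, THI + IMZ and IMZ + CTD), with medians of -0.25, -0.29, -0.17 and -0.12.

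Pericyte genes summed to 45.4 to 69.8 CPM in Control and 35.1 to 60.5 CPM in treated rats, and of 7 the marker Rgs5 rose in IMZ (log2 0.76, adjusted p = 0.0343) and THI + IMZ (0.92, adjusted p = 0.00225), the sole calls. The shares of all genes called were 0.251% in IMZ and 1.18% in THI + IMZ. In both treatments 5 of the 7 were below control, with medians of -0.13 and -0.37, and Pdgfrb, the gene most like Eln over 31 rats, stood at -0.42 to -0.21 over the 6 treatments with no call. Of 6 portal fibroblast genes, Dpt alone was called and rose in THI + CTD (0.81, adjusted p = 0.00159) and IMZ + CTD (0.76, adjusted p = 0.00576), while its defining genes Thy1 and Entpd2 were at 0.0259 to 0.781 and 0.529 to 1.82 CPM. The medians of the 6 genes were -0.09 in THI + CTD and -0.62 in IMZ + CTD, with 3 and 4 of them below control. These treatments had 4.39% and 1.46% of all genes called. Of the vessel lining, the 9 arterial genes summed to 24.6 to 34.6 CPM in Control and 24.3 to 39.6 CPM in treated rats, with Efnb2 (-0.84, adjusted p = 0.0111) and Dll4 (-0.58, adjusted p = 0.0271) lower in CTD and no call in the other treatments. In CTD the other 7 included 2 genes below control, and the median of the 9 was 0.09. Over all genes, 6.03% were called lower in CTD. Further, 0 of 7 sinusoidal genes were called in any treatment (264 to 318 CPM in Control, 237 to 313 CPM in treated rats). Bile duct genes summed to 19.2 to 26.6 CPM in Control and 17.3 to 31.4 CPM in treated rats. Mesothelial, nerve and striated muscle genes had no calls and sums of at most 7.32, 2.88 and 0.83 CPM. The part of these cell types in the member values was not tested.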

How the data were processed

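Total RNA of 31 rat livers was sequenced, 1 library per rat, each rat an independent replicate. The authors aligned paired-end reads to the genome build Rnor_5.0, took the reads per gene from STAR 2.5.2b, and deposited these raw counts. They also deposited a normalized signal for 19904 genes, which matched each count over a size factor for the library (relative deviation up to 5.3e-15) and served only for that check. The annotation release and the strand setting of the counting are not given in the sources used here. Groups and replicate numbers came from the sample labels.

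The members and gene lists were chosen with earlier results of these data known. The counts were tested with edgeR 4.0.16 in R 4.3.3 (TMM, genes with at least 2 counts in total, 1 model with 7 group means, quasi-likelihood test, Benjamini-Hochberg over all genes, threshold 0.05). The SE belongs to the log2 fold change. CPM used TMM library sizes, and log2 CPM a prior count of 2. Correlations were tested by exact permutation (Python 3.11.15, numpy 2.4.6). As Acta2 had no row, 28 pairs of members were tested. The fit was checked on simulated counts. All 9 members are named, from each list up to 4 genes past the threshold in at least 1 treatment (Smad2, below that limit, was named after its value was seen, as a single rise), and for likeness the 10 genes with the highest r. Results for some single genes that this rule names are not reported here. Alternatives were DESeq2 1.42.0 (size factors, Wald test), filterByExpr, no filter, the replicate number as a block, thinned counts, only the groups compared, and each rat left out in turn.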

Additional observations from a re-analysis of the deposited data

Results flagged for a closer look

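Of 48 combinations of a member and a group of 4 to 8 rats, 3 had 1 rat far from the others, where chance gives about 1 in 20. Tagln in IMZ + CTD replicate 3 stood at 11.5 CPM above 7.9 to 8.26 CPM, a gap of 0.881 of the group's range. Mylk in THI + IMZ replicate 4 stood at 144 CPM above 135 to 136 CPM, a gap of 0.84 of the range. Cnn1 in Control replicate 1 stood at 1.68 CPM above 0.123 to 0.424 CPM, a gap of 0.559 of the range.

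Differences between treatments past the test of the difference itself were all with CTD. For Tagln they were -1.06 for THI minus CTD, -1.11 for IMZ minus CTD and 1.11 for CTD minus THI + IMZ on the log2 scale. For Mylk they were 0.38 for IMZ minus CTD, -0.47 for CTD minus THI + IMZ and -0.38 for CTD minus IMZ + CTD.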

How the results depend on the processing

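Members past the threshold against control numbered 1 in THI, 1 in IMZ, 5 in CTD, 2 in THI + IMZ, 3 in THI + CTD and 1 in IMZ + CTD. Fitting only the groups compared gave 0 in THI, 0 in THI + IMZ, 0 in IMZ + CTD and 3 in CTD, with 1 member in the joint test of treatments (2 in the reported fit) and 1 of the pairwise differences (6). DESeq2's Wald test gave 2 in THI. The labels give the groups the same replicate numbers and do not say what a number stands for. Deviations from the group mean correlated with r from -0.265 to 0.437 over 78 same-numbered pairs (median 0.0263), 19 of them over 0.1. Over 326 pairs with other numbers in other groups, r ran from -0.423 to 0.423 (median -0.00747), with 56 over 0.1. Whether rats of the same number share more than the number was not tested. With the replicate number as a block, 0 members passed in THI, IMZ, THI + IMZ and IMZ + CTD, 3 in CTD and 1 in the joint test. Under the block Eln was past the threshold in none of the 6 treatments (log2 -1.22 to -0.86). The elastic fibre list then had 0 in THI + CTD and the smooth muscle list 0 in CTD. Over all genes the reported fit called, in the same order, 108, 50, 2518, 235, 873 and 290, the block 45, 23, 1571, 53, 348 and 80, and the Wald test 199, 150, 3007, 435, 1386 and 567.

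Leaving out 1 rat at a time, the calls ranged over 0 to 1 in THI, 0 to 1 in IMZ, 2 to 6 in CTD, 1 to 2 in THI + IMZ, 2 to 4 in THI + CTD and 0 to 1 in IMZ + CTD, over 0 to 2 in the joint test and 2 to 7 for pairs of treatments, and over 0 to 1 for correlated pairs in Control (1 without replicate 7). The elastic fibre list ranged over 0 to 4 in CTD, 0 to 2 in THI + CTD and 0 to 1 in IMZ + CTD, and the smooth muscle list over 1 to 3 in CTD, 0 to 1 in THI + CTD and 0 to 1 in IMZ + CTD. The Wald test called 2 elastic fibre genes in THI + CTD (1 in the reported fit) and 1 in IMZ + CTD (0), and 4 smooth muscle genes in CTD (2), 2 in THI + CTD (0) and 1 in IMZ + CTD (0). filterByExpr gave 1 elastic fibre gene in IMZ + CTD, and 4, 1 and 1 smooth muscle genes in CTD, THI + CTD and IMZ + CTD. Fitting only the groups compared gave 2 elastic fibre genes in THI + CTD and 1 smooth muscle gene in IMZ + CTD.

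Log2 fold changes that turned sign were those of Fbn1, Cnn1 and Des: Fbn1 under the block in IMZ (0.04), THI + IMZ (0.08) and THI + CTD (0.06), and with thinned counts Fbn1 in THI + IMZ (0.01), Cnn1 in THI + CTD (0.01) and Des in CTD (0.07). With 1 rat left out they ranged for Fbn1 over -0.05 to 0.12 in THI, -0.14 to 0.01 in IMZ, -0.15 to 0.06 in THI + IMZ and -0.10 to 0.06 in THI + CTD, for Cnn1 over -1.09 to 0.06 in THI + IMZ and -0.50 to 0.67 in THI + CTD, and for Des over -0.12 to 0.15 in CTD. Eln and Myh11 kept their sign in all 228 repeats each. The cause of these changes was not tested. Lox and Cnn1, with as few as 6 and 2 counts in a library, are limited by depth.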
